A study of Mus musculus with 12 samples.

Results

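The Dlk1-Dio3 region on mouse chromosome 12 is an imprinted domain that holds a large group of microRNAs (miRNAs), short RNAs that pair with messenger RNAs through a seed near their 5′ end and repress them. The members described here were the array probes for mouse miRNAs whose numeric names belong to this region, with either arm of the hairpin and without the star-strand probes. Of 47 numeric names, 37 had such a probe, which gave 41 members among 417 mouse miRNA probes. The cells were BC3H1, a line from a mouse brain tumour that has muscle-like traits, and 12 Exiqon arrays were read in 2 colours. The 3 groups have 4 arrays each. RR_Rap is the rapamycin-resistant line RR1, made by 6 months of culture in 1 µM rapamycin and kept in the drug, and it is a single line. RS_Rap is rapamycin-sensitive BC3H1 after 24 h in 100 nM rapamycin, and RS_DMSO is the same sensitive cells after 24 h in the solvent DMSO. RR_Rap and RS_Rap therefore differ in the line and also in the dose and the length of exposure. Rapamycin binds FKBP12 and blocks mTORC1, a kinase complex that controls cell growth.

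As background, Dlk1, Rtl1 and Dio3 are expressed from the paternal chromosome, while the non-coding transcripts Meg3, Rian and Mirg and the miRNAs are expressed from the maternal one. The miRNAs are thought to be cut from long maternal transcripts, and in the mouse they are best known from the embryo, the placenta and the brain. Those that lie opposite Rtl1 match it perfectly and direct its cleavage. In the rat, miR-134 is known for limiting dendritic spine size in hippocampal neurons.

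Per RefSeq (GRCm38.p6), all 41 members lie on hairpins of the plus strand between chr12:109563692-109743795, a span of 180.104 kb. Upstream, 1 member (miR-770-3p) lies in Meg3, 8 lie across Rtl1 and 2 (miR-341 and miR-370) lie in Rian. The other 30 form the miR-379 to miR-410 cluster, which spans 34.736 kb. RefSeq gave a mature sequence for 38 members, and those 38 have 38 distinct seeds, so none of the 38 can be grouped with another by seed. The array names 28 members without an arm, and for these the RefSeq strand that carried the plain name in earlier naming is given. The first set of sequences below are the 4 members with the highest sample signal over the negative controls, which had the 4 largest log2 changes of RR_Rap against RS_Rap, and the capitals mark the seed, bases 2 to 8. The position of each hairpin was chr12:109720006-109720097 for miR-667, chr12:109618258-109618336 for miR-370, chr12:109715318-109715402 for miR-494 and chr12:109734732-109734797 for miR-668.
miR-667: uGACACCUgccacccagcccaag
miR-370: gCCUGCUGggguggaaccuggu
miR-494: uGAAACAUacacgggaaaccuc
miR-668: uGUCACUCggcucggcccacuacc

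The next sequences belong to members that differed between groups at a signal near the negative controls. miR-540-3p (chr12:109586080-109586146) lies across Rtl1, miR-341 (chr12:109611500-109611595) lies in Rian, and miR-134 (chr12:109734139-109734209) lies 0.522 kb upstream of miR-668. The last pair, miR-300 (chr12:109724313-109724391) and miR-381 (chr12:109726822-109726896), is shown because 19 of their 22 bases are the same, and cross-hybridisation between their probes was not tested. Among 367 pairs of members of equal length, only this pair and miR-543 with miR-495, which share 18 of 22 bases, differed at 6 bases or fewer.
miR-540-3p: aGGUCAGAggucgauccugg
miR-341: uCGGUCGAucggucggucggu
miR-134: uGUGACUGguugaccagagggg
miR-300: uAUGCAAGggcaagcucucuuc
miR-381: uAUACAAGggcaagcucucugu

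Each sample was labelled with Hy3 and a common pool with Hy5, and the values below are either Hy3 or Hy5 spot signals (the median pixel, taken as the median over the unflagged spots of a probe) or log2 ratios of sample over pool. By 1 label the pool is an equal mixture of the 3 conditions, by another it comes from 9 samples, so its makeup is unsettled. The highest of 7 negative-control probes had a Hy3 signal of 125.5 to 162 on 11 arrays and of 304.5 on RS_DMSO 3. RS_DMSO 3 also had the most flagged spots, 371, against 70 to 213 on the other arrays, and correlated with the other RS_DMSO arrays at 0.574 to 0.709 across probes. No member spot was saturated in either channel. All 12 arrays were scanned on 1 day in 3 consecutive runs that each held 1 group, so scan order and group cannot be told apart. The labels do not state whether replicate arrays are separate cultures, and p-values then reflect only the variation among these RNA samples, possibly technical.

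Most members of the region gave little signal in these cells. Here, above the negative controls means a Hy3 signal over the highest control probe on 3 or more arrays in some group. By this measure 16 of 41 members (39.02%) were above, against 219 of 417 mouse miRNA probes (52.52%), and 6 members (14.63%) were above on every array, against 81 of 417 (19.42%). Within groups, 13 members were above in RR_Rap, 9 in RS_Rap and 12 in RS_DMSO, and 7 were above in each of the 3 groups. Of all 417 probes, 190 were above in RR_Rap, 203 in RS_Rap and 167 in RS_DMSO. Without RS_DMSO 3 the number of members above in some group was 13, since miR-134, miR-154 and miR-409-5p had passed through RS_DMSO alone. miR-381 and miR-434-3p passed through RR_Rap alone, the group in which their mean log2 ratios were highest. In bulk RNA, fewer cells with a miRNA and less of it per cell cannot be told apart.

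Only 3 members had a median Hy3 signal over 12 arrays of more than 2 times the highest negative control. miR-668 was at 38.8 times (range 11.1 to 56.6), miR-494 at 10.7 times (2.94 to 22.0) and miR-667 at 3.00 times (1.13 to 8.84). These are ratios within an array and do not rank the miRNAs by abundance, since probes differ in how they bind. A further 9 members had medians between 1 and 2 times the control, the highest being miR-370 at 1.21 and miR-487b at 1.21, and the other 29 were at or below it. The 3 bright members all lie in the miR-379 to miR-410 cluster, miR-667 4.603 kb downstream of miR-494 and 14.634 kb upstream of miR-668, among neighbours with signals near the controls. The GC content of the mature sequences had a median of 47.8% in the 15 sequenced members above the controls and of 47.6% in the 23 that were not.

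**Figure D1:**
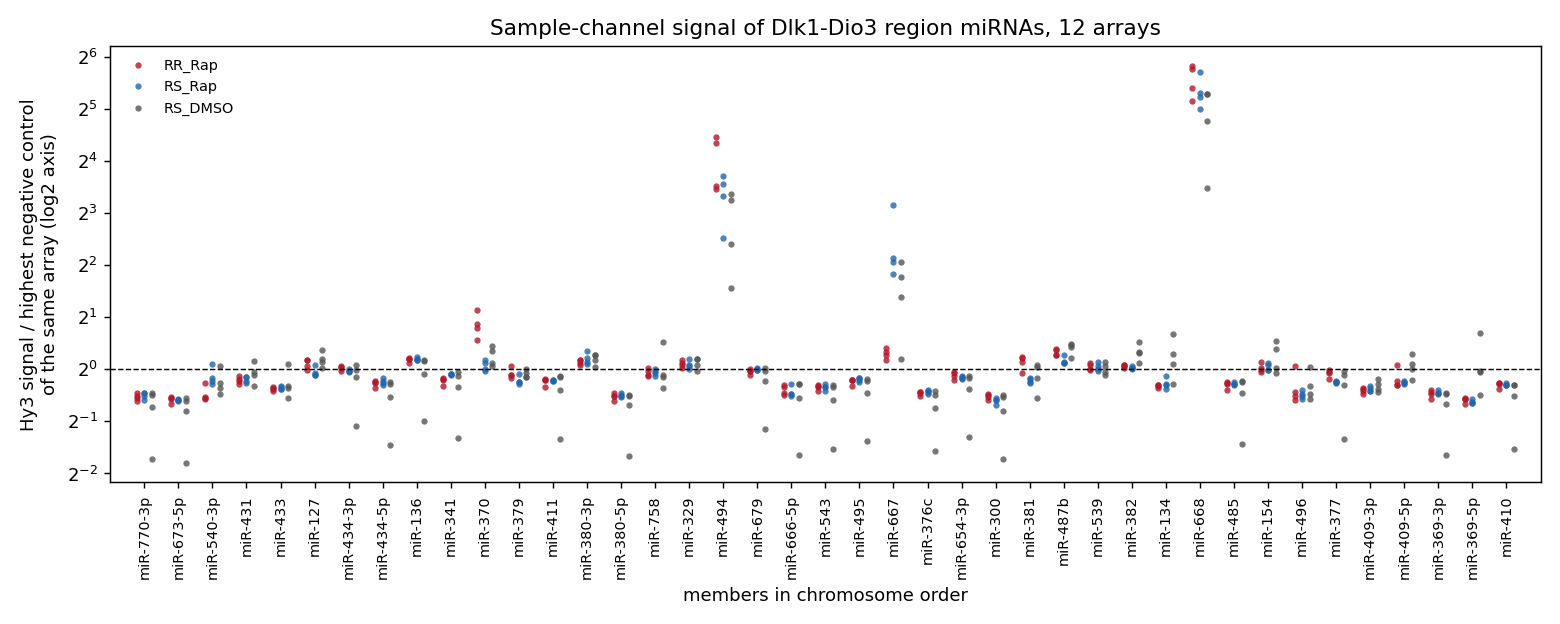
Hy3 signal of the 41 members on each of 12 arrays, divided by the highest negative control of the same array (log2 axis, dashed line at the control), with members in chromosome order along the x axis and colours for RR_Rap, RS_Rap and RS_DMSO. miR-668, miR-494 and miR-667 stand clear of the line on most arrays, while the other members lie close to it or below it, and the lowest points of many dim members are from RS_DMSO 3.

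Members moved in both directions, and most did not pass the test. In RR_Rap against RS_DMSO, 7 of 41 members (17.1%) passed an adjusted p of 0.05, 2 higher and 5 lower, against 23.3% of all 417 probes (12.9% higher and 10.3% lower). In RR_Rap against RS_Rap, 12 members (29.3%) passed, 4 higher and 8 lower, against 28.8% of all probes (15.1% higher and 13.7% lower). In RS_Rap against RS_DMSO, 1 member (2.44%) passed and was lower, against 3.36% of all probes (1.68% higher and 1.68% lower). The shares were thus below or near those of all miRNAs, and the member medians of the log2 change, 0.01, 0.02 and -0.01 in that order, were near the medians over all probes of -0.01, 0.03 and -0.02. Both comparisons with RR_Rap share its 4 arrays, and both comparisons with RS_DMSO share that group, so their values are given side by side only.

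Counts of members whose arrays did not overlap between the groups are given next. There were 7 in RR_Rap against RS_DMSO (25.4% of all probes), 17 in RR_Rap against RS_Rap (39.8% of all probes) and 5 in RS_Rap against RS_DMSO (14.9% of all probes). Of the 16 members above the controls, 4, 5 and 1 were called in the 3 comparisons, where 37.0%, 43.4% and 5.48% of all such probes were. Of the 25 not above, 3, 7 and 0 were called, where 8.08%, 12.6% and 1.01% of all such probes were, and the calls of these members in the comparisons with RR_Rap were lower there. Of all probes not above the controls, 10 of 16 calls against RS_DMSO and 18 of 25 against RS_Rap were also lower in RR_Rap. For the count of 0, 5 of the 25 had an unadjusted limma p below 0.05, as did 31 of all 198 such probes. The split of higher against lower calls in RR_Rap against RS_Rap depended on the scaling. Without loess, 14 were higher and 6 lower, where 32.4% of all probes were higher and 26.6% lower. With spike-in centring the numbers were 6 and 7 (13.9% and 26.4% of all probes), from the scanner's processed signals 3 and 3 (9.83% and 11.3%), from the sample channel alone 5 and 1 (6.95% and 6%), and 1 and 9 in the deposited value table (3.6% and 29%). In RR_Rap against RS_DMSO the split was 3 and 3 without loess (11% and 12.9% of all probes), 5 and 2 with spike-in centring (17.3% and 9.59%), 2 and 9 from processed signals (11.3% and 12.9%), 1 and 1 from the sample channel alone (9.35% and 3.84%) and 1 and 3 in the value table (7.67% and 10.6%). In RS_Rap against RS_DMSO it was 2 and 6 without loess (22.1% and 7.43% of all probes), 6 and 1 with spike-in centring (29% and 1.68%), 0 and 4 from processed signals (3.36% and 5.04%) and 5 and 2 in the value table (25.2% and 1.44%). The calls over all probes thus moved with the scaling as well.

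**Figure D2:**
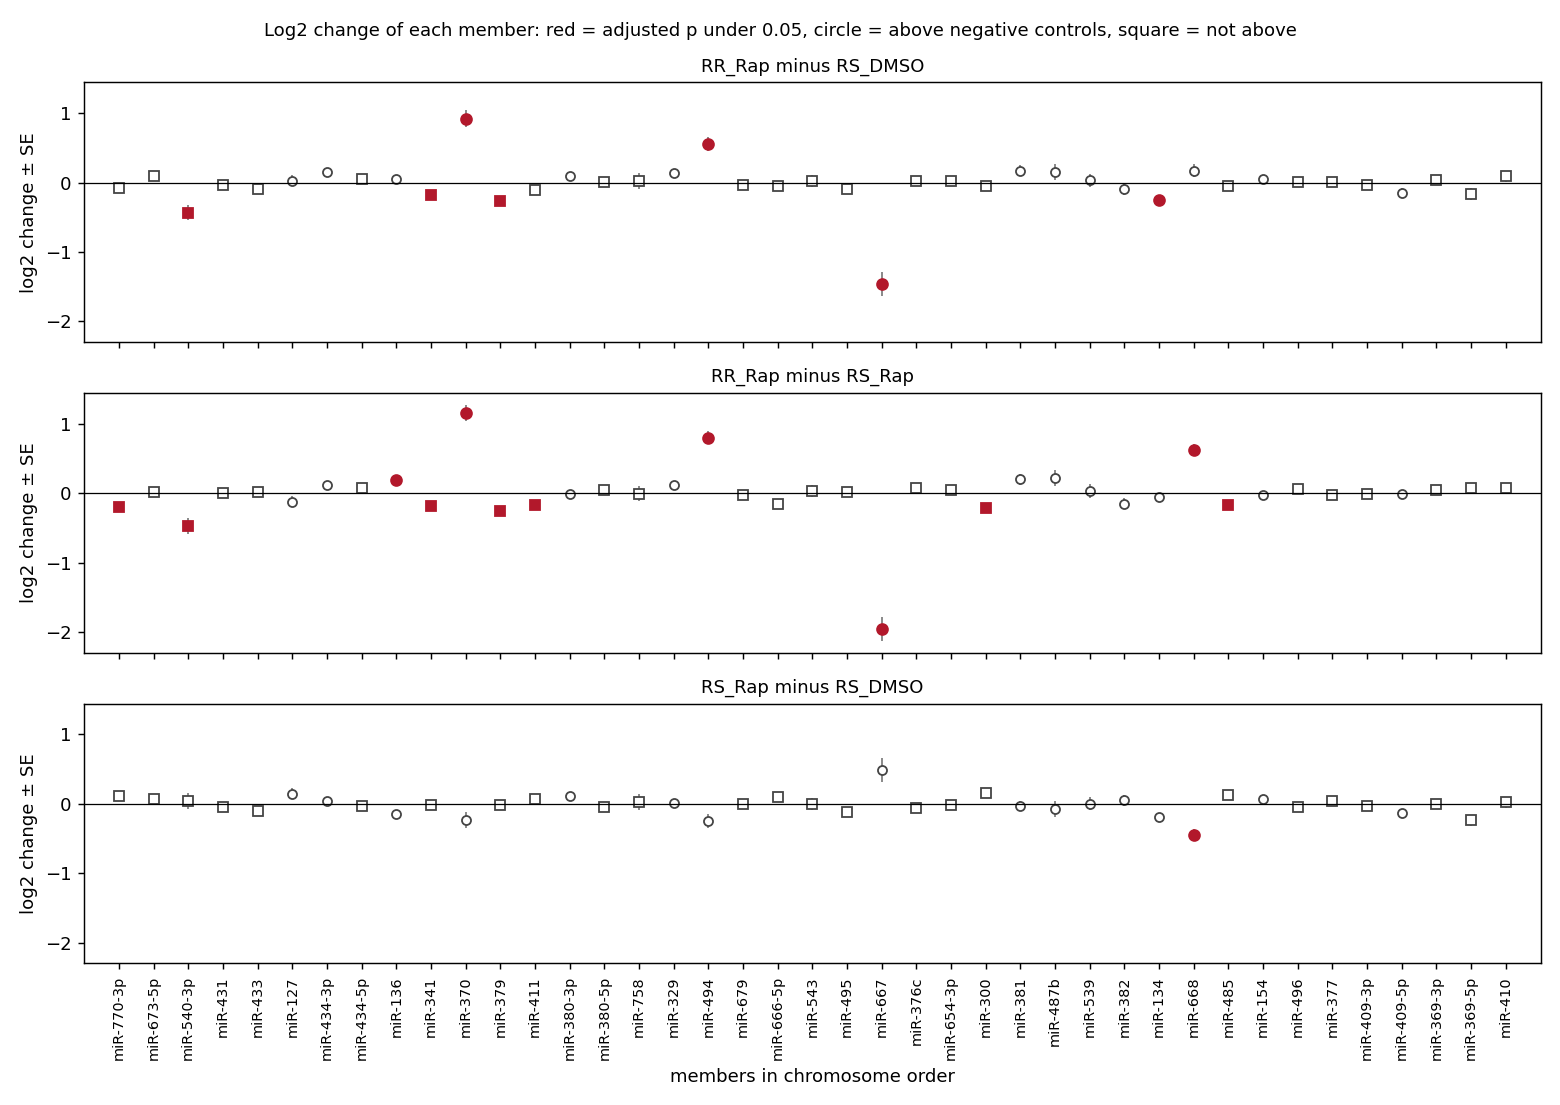
Log2 change (y axis, bars are standard errors of the limma fit) of the 41 members in chromosome order for the 3 comparisons from top to bottom, with red for adjusted p under 0.05, circles for members above the negative controls and squares for the others. miR-667 (lower) and miR-370 and miR-494 (higher) lead both comparisons with RR_Rap. miR-341 (lower), miR-370 (higher) and miR-379 (lower), next to each other in this order, are called in both. Of these, only miR-370 was above the controls, and miR-379 lies 90.723 kb from miR-370.

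miR-667 was lower in the resistant line than in both groups of sensitive cells, and this was the largest change in the region in both comparisons. Its Hy3 signal was 173.75, 148, 173.25 and 158.5 in RR_Rap, 554.75, 529.5, 452 and 1116.5 in RS_Rap, and 671.5, 364.5, 349 and 446.5 in RS_DMSO. Every RR_Rap array lay below every other array, yet still above its own negative controls. The log2 ratios to the pool were -1.65, -1.74, -2.20 and -1.76 in RR_Rap, 0.22, 0.29, -0.45 and 0.40 in RS_Rap, and -0.25, -0.38, -0.56 and -0.29 in RS_DMSO. The log2 change was -1.47 ± 0.17 (SE, adjusted p = 4.68e-05), or 2.76-fold lower, in RR_Rap against RS_DMSO. It was -1.95 ± 0.17 (adjusted p = 3.19e-06), or 3.88-fold lower, in RR_Rap against RS_Rap. Against RS_DMSO, RS_Rap gave 0.49 ± 0.17 (adjusted p = 0.112), and the arrays of those groups overlapped. Both calls in RR_Rap held under all 22 other settings and array omissions, with log2 changes from -1.84 to -1.14 against RS_DMSO and from -2.62 to -1.51 against RS_Rap.

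miR-370, reported in liver cells to target the fatty-acid oxidation gene Cpt1a, was higher in the resistant line. Its Hy3 signal was 252, 194.5, 287.5 and 228.25 in RR_Rap, 142.75, 124.5, 127.5 and 137.25 in RS_Rap, and 220.25, 145.5, 390.25 and 142.5 in RS_DMSO. The highest of these signals, 390.25, was on RS_DMSO 3, the array with raised negative controls. As log2 ratios the values were 0.38, 0.35, 0.65 and 0.40 in RR_Rap, -0.57, -0.64, -0.83 and -0.79 in RS_Rap, and -0.50, -0.62, -0.09 and -0.68 in RS_DMSO. The ratios of RR_Rap were above 0 on each array and those of the sensitive cells were below it. The log2 change was 0.92 ± 0.12 (adjusted p = 1.06e-04, 1.89-fold) against RS_DMSO and 1.15 ± 0.12 (adjusted p = 1.37e-05, 2.22-fold) against RS_Rap. RS_Rap against RS_DMSO gave -0.23 ± 0.12 (adjusted p = 0.257). The call against RS_DMSO was lost in the deposited value table, at 0.35 with an adjusted p of 0.260.

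miR-341, the other member in Rian, lies 6.662 kb upstream of miR-370 and moved the other way at a signal below the controls. Its log2 ratios were -0.10, -0.10, -0.07 and -0.06 in RR_Rap, 0.11, 0.06, 0.10 and 0.10 in RS_Rap, and 0.08, 0.03, 0.22 and 0.08 in RS_DMSO. RR_Rap did not overlap with either other group, and the log2 change was -0.19 (adjusted p = 0.00571) against RS_DMSO and -0.18 (adjusted p = 0.00692) against RS_Rap. Its Hy3 signal was 110.5 to 117.25 in RR_Rap, 116 to 120 in RS_Rap and 122 to 128.25 in RS_DMSO, below the highest negative control on each of the 12 arrays. The change against RS_DMSO was 0.013 with spike-in centring, opposite in sign, and each of the calls was lost under 5 other settings.

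miR-494 was higher in the resistant line as a ratio to the pool. Its log2 ratios were 0.22, 0.30, 0.16 and 0.09 in RR_Rap, -0.70, -0.25, -0.75 and -0.73 in RS_Rap, and -0.35, -0.34, -0.30 and -0.45 in RS_DMSO. The 4 RR_Rap ratios lay above all others, and the value of -0.25 on RS_Rap 2 stood apart from its group. The log2 change was 0.55 ± 0.10 (adjusted p = 0.00109, 1.47-fold) against RS_DMSO and 0.80 ± 0.10 (adjusted p = 6.75e-05, 1.74-fold) against RS_Rap. The Hy3 signal itself was 1580, 2648.75, 2891.5 and 1454.75 in RR_Rap, 720.5, 1274.25, 1489.5 and 1652.75 in RS_Rap, and 1537, 745, 894 and 1360 in RS_DMSO, so the groups overlapped in raw signal. Without loess the change against RS_Rap was 0.13 (adjusted p = 0.299) and with spike-in centring 0.11 (adjusted p = 0.428), and the call was also lost in the deposited value table and in the sample channel alone, which also ended the call against RS_DMSO. In RS_Rap against RS_DMSO the change was -0.25 (adjusted p = 0.162), and it was opposite in sign without loess (0.33), with spike-in centring (0.43) and in the deposited value table (0.42).

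miR-668 was the single member called between RS_Rap and RS_DMSO, and its direction differed between settings. Its log2 ratios were -0.37, -0.14, -0.44 and -0.19 in RR_Rap, -1.06, -0.81, -0.91 and -0.87 in RS_Rap, and -0.46, -0.29, -0.42 and -0.66 in RS_DMSO. After loess the RS_Rap arrays were all below the others. The log2 change was 0.62 ± 0.09 (adjusted p = 1.65e-04, 1.54-fold) in RR_Rap against RS_Rap, -0.45 ± 0.09 (adjusted p = 0.0212) in RS_Rap against RS_DMSO and 0.17 ± 0.09 (adjusted p = 0.202) in RR_Rap against RS_DMSO. Without loess the first was -0.21 and the second 0.28, with spike-in centring -0.23 and 0.37, and in the deposited value table -0.26 and 0.41, each opposite in sign. The sample channel alone kept both signs and lost both calls, at 0.78 (adjusted p = 0.194) and -0.24 (adjusted p = 0.638). The Hy3 signals were 4914, 7445.5, 7112 and 5557 in RR_Rap, 4009, 4737.75, 5007.5 and 6615.75 in RS_Rap, and 6280, 3797.5, 3378 and 5107 in RS_DMSO. Its Hy5 signals, 6270 to 13758 over the 12 arrays, were the highest of the members in the pool channel. The raw signals of the 3 groups overlapped, and the call between RS_Rap and RS_DMSO was also lost without RS_DMSO 2, RS_Rap 1 or RS_Rap 4, with adjusted p of 0.0507, 0.0509 and 0.0507.

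**Figure D3:**
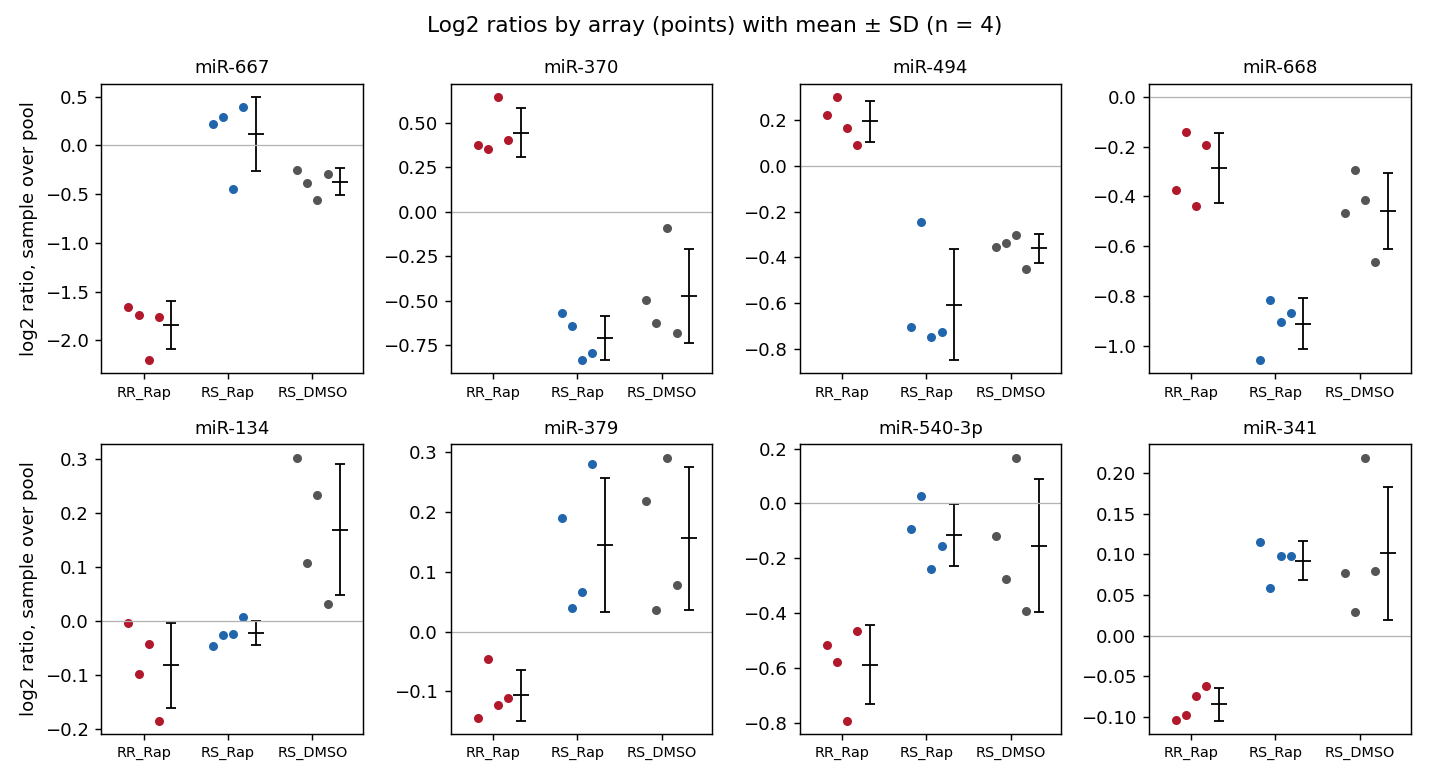
Log2 ratios of sample over pool for 8 members on each array (points; RR_Rap, RS_Rap and RS_DMSO from left to right) with the mean and SD of 4 arrays in black; the y axes differ between panels. The RR_Rap points of miR-667, miR-379, miR-540-3p and miR-341 lie below those of both other groups, and those of miR-370 and miR-494 lie above them.

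**Figure D4:**
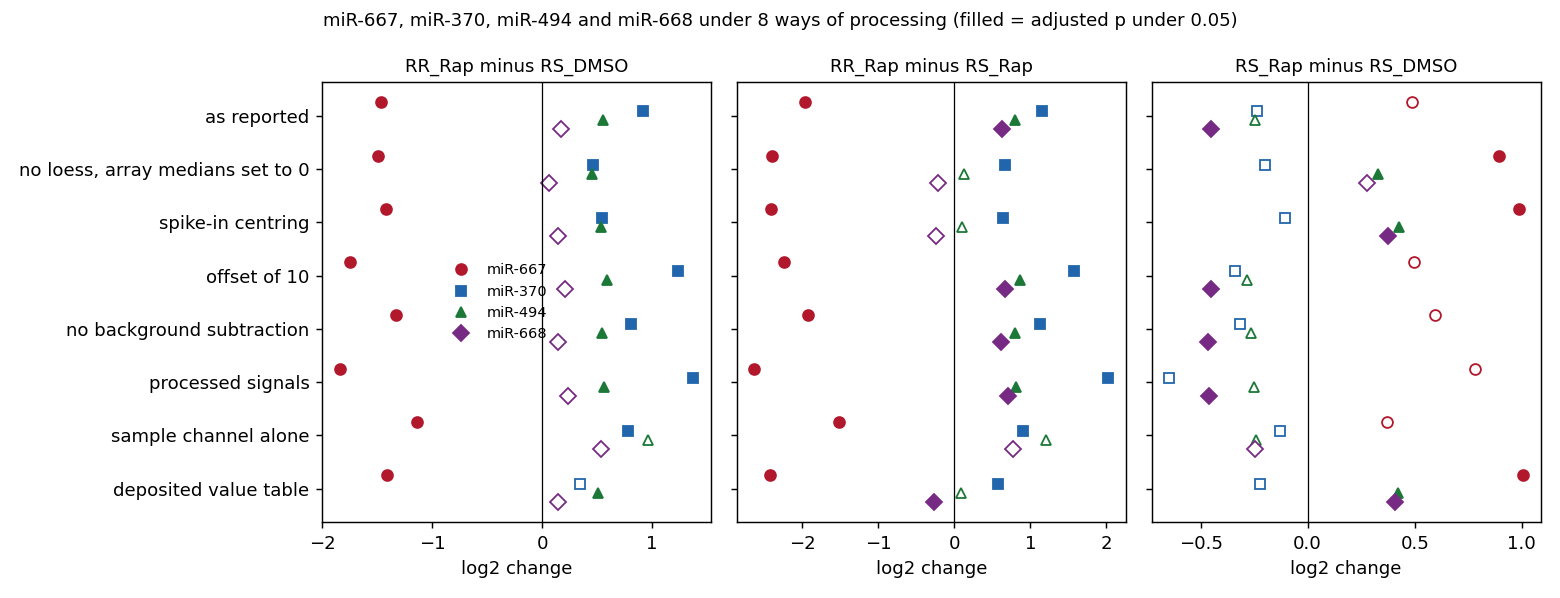
Log2 change (x axis) of miR-667, miR-370, miR-494 and miR-668 as reported and under 7 other ways of processing the arrays (y axis), one panel per comparison, with filled symbols for adjusted p under 0.05. miR-667 and miR-370 stay on their side of 0 in both comparisons with RR_Rap, while miR-668 crosses 0 without loess, with spike-in centring and in the deposited value table.

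Across Rtl1, 1 of 8 members was called in RR_Rap against RS_DMSO (23.3% of all probes) and 2 in RR_Rap against RS_Rap (28.8% of all probes). miR-540-3p had log2 ratios of -0.52, -0.58, -0.79 and -0.46 in RR_Rap, -0.09, 0.03, -0.24 and -0.15 in RS_Rap, and -0.12, -0.28, 0.17 and -0.39 in RS_DMSO. The RR_Rap arrays were lower than all others, with log2 changes of -0.43 ± 0.11 (adjusted p = 0.0144) against RS_DMSO and -0.47 ± 0.11 (adjusted p = 0.00714) against RS_Rap. Its Hy3 signal was 88 to 110 in RR_Rap, 105 to 134.5 in RS_Rap and 100.5 to 317.75 in RS_DMSO, and exceeded the controls on 1 array each of the sensitive groups. These calls were lost under 3 and 2 other settings, the deposited value table and the sample channel alone among them. miR-136 had ratios of 0.48, 0.47, 0.55 and 0.49 in RR_Rap, 0.26, 0.30, 0.35 and 0.30 in RS_Rap, and 0.33, 0.64, 0.45 and 0.39 in RS_DMSO. It was higher in RR_Rap than in RS_Rap by 0.20 (adjusted p = 0.0259), a call lost under 5 other settings and when RR_Rap 1, 3 or 4 or RS_Rap 1, 2 or 4 was left out. miR-127 and miR-434-3p were above the controls and were not called, with log2 changes of 0.03 and 0.16 against RS_DMSO and -0.12 and 0.12 against RS_Rap.

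In the miR-379 to miR-410 cluster, beside miR-494, miR-667 and miR-668, 5 members were called, all lower in RR_Rap as a ratio to the pool. Of its 30 members, 1 was called higher and 3 lower in RR_Rap against RS_DMSO (12.9% and 10.3% of all probes). In RR_Rap against RS_Rap, 2 were called higher and 5 lower (15.1% and 13.7% of all probes). miR-134 had ratios of -0.00, -0.10, -0.04 and -0.18 in RR_Rap, -0.05, -0.03, -0.02 and 0.01 in RS_Rap, and 0.30, 0.11, 0.23 and 0.03 in RS_DMSO. It was lower in RR_Rap than in RS_DMSO by a log2 change of -0.25 (adjusted p = 0.00815). Its Hy3 signal was above the controls on 3 RS_DMSO arrays and on no other, so it counted as above only through the group in which it was high, and its call was lost under 6 other settings. miR-379, the first member of the cluster, had ratios of -0.15, -0.05, -0.12 and -0.11 in RR_Rap, 0.19, 0.04, 0.07 and 0.28 in RS_Rap, and 0.22, 0.04, 0.29 and 0.08 in RS_DMSO. Its log2 change was -0.26 (adjusted p = 0.0129) against RS_DMSO and -0.25 (adjusted p = 0.0143) against RS_Rap, and the call against RS_Rap was lost without background subtraction and under 5 other settings, 3 of which turned its sign. The call against RS_DMSO was lost under 6 other settings. The Hy3 signal of miR-379 was 117.25 to 137.5 in RR_Rap, 104 to 119 in RS_Rap and 118 to 289.5 in RS_DMSO. It exceeded the controls on 1 RR_Rap array and on no other, so miR-379 was not above them. Against RS_Rap this sample signal was thus not lower in RR_Rap. The Hy5 signal, from the pool, was 77 to 86, 67.75 to 74 and 81 to 124.5 in that order.

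miR-300, miR-411 and miR-485 were called lower in RR_Rap against RS_Rap alone, as was miR-770-3p in Meg3. Their log2 changes were -0.21 (adjusted p = 0.00306), -0.17 (adjusted p = 0.0389), -0.18 (adjusted p = 0.0184) and -0.19 (adjusted p = 0.0208). None of the 4 exceeded the negative controls in Hy3 on any array, and the arrays of miR-411 overlapped. For miR-300 the sample channel ran the other way: its Hy3 signal was 90.5 to 94 in RR_Rap and 78 to 86 in RS_Rap, and its Hy5 signal, from the pool, was 74.5 to 79.5 on RR_Rap arrays and 66.5 to 68.5 on RS_Rap arrays. The Hy3 signals of miR-411, miR-485 and miR-770-3p were not lower in RR_Rap either. In RR_Rap they were 109.5 to 115, 105 to 111 and 89.75 to 96. In RS_Rap they were 106.75 to 110.5, 103.25 to 106.25 and 83.5 to 93. Their Hy5 signals were 70.25 to 80, 69 to 74.5 and 79.75 to 88 on RR_Rap arrays. On RS_Rap arrays these were 64 to 67.5, 64.5 to 66 and 70.5 to 78. Each of the 4 log2 changes was positive without loess, at 0.16, 0.013, 0.029 and 0.053. The call of miR-485 was lost without RR_Rap 1, that of miR-770-3p when RR_Rap 2 or 3 or RS_Rap 1 or 2 was left out, and that of miR-411 on leaving out any of 7 arrays (RR_Rap 1, 3 or 4, RS_Rap 1, 2 or 3, or RS_DMSO 4). miR-381, which resembles miR-300, had log2 changes of 0.20 (adjusted p = 0.0731) against RS_Rap and 0.17 (adjusted p = 0.155) against RS_DMSO, opposite in sign to those of miR-300, -0.21 and -0.06.

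The other members of the cluster above the controls were not called in any comparison. In RR_Rap against RS_DMSO the log2 change was 0.15 for miR-487b, 0.14 for miR-329, 0.09 for miR-380-3p, 0.05 for miR-154, 0.03 for miR-539, -0.10 for miR-382 and -0.15 for miR-409-5p. In RR_Rap against RS_Rap it was 0.22 for miR-487b, 0.12 for miR-329, -0.01 for miR-380-3p, -0.02 for miR-154, 0.03 for miR-539, -0.15 for miR-382 and -0.02 for miR-409-5p. The arrays of miR-487b, miR-329 and miR-382 did not overlap between RR_Rap and RS_Rap, although these differences did not pass the adjusted test. In RS_Rap against RS_DMSO these 7 members lay between -0.14 for miR-409-5p and 0.11 for miR-380-3p.

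The remaining 18 members were neither above the controls nor called, and 12 of them were above on no array. They include miR-433 and miR-434-5p across Rtl1 and miR-410 at the end of the cluster. The median Hy3 signal over these 18 ran from 103.5 to 108.25 on RR_Rap arrays, 96.75 to 103.125 on RS_Rap arrays and 104.875 to 118.625 on RS_DMSO arrays. Their log2 changes ran from -0.17 (miR-369-5p) to 0.09 (miR-673-5p) in RR_Rap against RS_DMSO, from -0.15 (miR-666-5p) to 0.08 (miR-434-5p) in RR_Rap against RS_Rap, and from -0.24 (miR-369-5p) to 0.10 (miR-666-5p) in RS_Rap against RS_DMSO. The smallest adjusted p among them was 0.149, 0.129 and 0.110 in those comparisons. The RS_DMSO arrays were uneven for some of these members and even for others. The Hy3 signal of miR-369-5p was 87.25 to 89.25 in RR_Rap and 81 to 84.5 in RS_Rap, against 157, 226.5, 297.5 and 93.5 in RS_DMSO. In RS_DMSO that of miR-410 was 106 to 114.25 and that of miR-434-5p 110.5 to 115. That none of these 18 passed the threshold does not show that their levels were alike.

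Of the 41 members, 13 were called in some comparison and 28 in none, and of the 13 called, 6 were above the negative controls and 7 were not. Over all probes, 23.3%, 28.8% and 3.36% were called in RR_Rap against RS_DMSO, RR_Rap against RS_Rap and RS_Rap against RS_DMSO. The share of all probes called in some comparison was not counted. The mature sequences of the 12 called members with a sequence had a median GC content of 59.5%, against 45.5% in the 26 that were called in none, with ranges of 36.4 to 72.7% and 23.8 to 68.2%. This is a description of probes whose hybridisation depends on base content, and its part in the calls was not tested.

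Star-strand probes of the same hairpins were read in the same fit. Of 6 star probes, 2 were called in RR_Rap against RS_DMSO and 1 in RR_Rap against RS_Rap (23.3% and 28.8% of all probes). None was called in RS_Rap against RS_DMSO (3.36% of all probes). miR-433* was lower in RR_Rap as a ratio to the pool, with log2 changes of -0.46 against RS_DMSO (adjusted p = 8.08e-04) and -0.32 against RS_Rap (adjusted p = 0.00834). So was miR-376a*, which was not above the controls, at -0.21 against RS_DMSO (adjusted p = 0.00979). The log2 ratios of miR-433* were -0.17, 0.08, -0.07 and 0.00 in RR_Rap, 0.19, 0.27, 0.26 and 0.41 in RS_Rap, and 0.50, 0.53, 0.20 and 0.47 in RS_DMSO, with no overlap between RR_Rap and either other group. Its Hy3 signal was 160.75 to 177.5 in RR_Rap, 151 to 182.75 in RS_Rap and 203 to 385 in RS_DMSO. RR_Rap and RS_Rap thus overlapped in raw sample signal. Its Hy5 signal, from the pool, was 139 to 166.5, 82.5 to 105.5 and 129 to 190.5 in that order. miR-433 itself gave -0.09 (adjusted p = 0.149) and 0.02 (adjusted p = 0.835), and whether the strands differ was not tested. Of 7 hairpins with a probe for each strand, miR-433 and miR-485 had 1 called strand, and the others had none.

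Other imprinted miRNA domains and markers of the cell types these cells could resemble were read in the same fit. Among 15 probes of the H19, Mest, Gnas and Sfmbt2 domains, miR-675-5p, cut from the maternally expressed H19, was lower in RR_Rap, with log2 changes of -1.42 against RS_DMSO (adjusted p = 6.83e-04) and -2.33 against RS_Rap (adjusted p = 1.18e-05). The other call was miR-669b, which was not above the controls, at 0.17 in RR_Rap against RS_Rap (adjusted p = 0.0330) and -0.22 in RS_Rap against RS_DMSO (adjusted p = 0.0367). Of 7 muscle miRNAs, 2 (miR-1 and miR-206) were above the controls, and in RR_Rap against RS_Rap they were lower, at log2 changes of -0.68 (adjusted p = 0.0230) and -0.61 (adjusted p = 0.0339), while miR-208 was higher by 0.41 (adjusted p = 0.00156). Of 4 neuronal probes, miR-124 was not above the controls and was lower in RR_Rap, at -0.12 against each group, and the probe for miR-128a and miR-128b was higher by 0.25 against RS_Rap. Of 5 blood-cell probes, miR-142-3p was higher by 0.20 in RR_Rap against RS_Rap. Beside these calls, 23.3% of all probes were called in RR_Rap against RS_DMSO, 28.8% in RR_Rap against RS_Rap and 3.36% in RS_Rap against RS_DMSO. The part of these markers in the members' values was not tested.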

How the data were processed

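Per the labels and file headers, total RNA was hybridised with Hy3 (sample) and Hy5 (pool) without dye swap, and the authors deposited Agilent Feature Extraction 9.5.3.1 spot intensity values of both channels, a scanner output that is not normalized, at a pixel size of 5 µm. Version 9.5.3.1 is also named in the submitters' processing notes. The authors' deposited value table holds log2 values whose scale and centring are not stated. Set against the raw log2 ratio of Hy3 over Hy5 of each array, it gave r of 0.977 to 1 and medians of 0.393 to 0.604, so it is uncentred and runs sample over pool. Hy3 marker spots had a median of 63228 in green and 100 in red, which fixes the channels.

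In limma 3.58.1 (R 4.3.3), mean signals were background-corrected (normexp, offset 50, which shrinks changes of dim probes), loess-normalized within arrays with control spots given weight 0, and then averaged over each probe's unflagged spots, of which there were up to 4. One fit (lmFit, eBayes) to all 12 arrays gave the 3 comparisons, with Benjamini-Hochberg adjustment over 417 probes and a threshold of 0.05. The number of arrays limits the precision. Members, lists and tests were chosen with earlier results of these data known. All members above the negative controls and all called members are named. On simulated arrays of 417 probes for RR_Rap against RS_DMSO, the fit called 24 of 30 changes of 0.3, 27 of 30 of 0.6, 30 of 30 of 1.2 and 4 of 327 unchanged probes. The simulated noise was normal, independent between probes and arrays, and added after normalization. These numbers therefore check the fit alone and do not cover the differences between scalings seen in the real arrays. The other settings are given with the limits.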

Additional observations from a re-analysis of the deposited data

Results flagged for a closer look

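Among 69 groups of 4 arrays tested for a sample far from the others, 1 was marked, where chance marks about 1 in 20. The log2 ratio of miR-494 on RS_Rap 2 was -0.25, against -0.75 to -0.70 on the other 3 RS_Rap arrays. Its Hy3 signal there, 1274.25, lay within the range of that group, 720.5 to 1652.75.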

How the results depend on the processing

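Counts of called members depended on the processing, and so did those of all probes. Calls over all probes were 24%, 59% and 29.5% without loess in RR_Rap against RS_DMSO, RR_Rap against RS_Rap and RS_Rap against RS_DMSO, 26.9%, 40.3% and 30.7% with spike-in centring, and 18.2%, 32.6% and 26.6% in the deposited value table, where 23.3%, 28.8% and 3.36% are reported. Without background subtraction they were 18.7%, 28.1% and 11.8% in that order, and from processed signals 24.2%, 21.1% and 8.39%. From the sample channel alone they were 13.2%, 12.9% and 0.48%, and among the 219 probes above the controls 37.4%, 44.3% and 7.76%. For members, against 7 in RR_Rap against RS_DMSO, there were 4 in the deposited value table, 3 without background subtraction, 4 with the 16 members above the controls alone, 11 from processed signals and 2 from the sample channel alone. Without loess there were 6 and with spike-in centring 7, of which 3 and 5 were higher. Against 12 in RR_Rap against RS_Rap, there were 20 without loess, 5 with members above the controls alone, 6 from processed signals and 6 from the sample channel alone. Against 1 in RS_Rap against RS_DMSO, there were 7 in the value table, 4 without background subtraction, 8 without loess, 4 from processed signals, 7 with spike-in centring and 0 from the sample channel alone, where 11 had an unadjusted limma p below 0.05. Leaving out each array in turn gave 7 to 10, 9 to 14 and 0 to 3 called members. The count in RS_Rap against RS_DMSO was 0 without RS_DMSO 2, RS_Rap 1 or RS_Rap 4 (9, 7 and 9 at an unadjusted limma p below 0.05), 2 without RS_Rap 2 or RS_Rap 3, and 3 without RS_DMSO 4. The shares of all probes called with an array left out were not counted. Unadjusted counts over all probes were not taken for these omissions or for the sample channel alone. In the fit as reported, 10 of 41 members and 98 of 417 probes had an unadjusted limma p below 0.05 in RS_Rap against RS_DMSO. The replicate numbers did not pair the arrays: same-numbered arrays correlated at -0.114 to 0.151 and 0 of 12 correlated best with their own number. With the replicate number as a block the counts were 7, 10 and 2 (21.3%, 27.1% and 4.8% of all probes). The cause of these differences was not tested.

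These values were opposite in sign to those reported. In RR_Rap against RS_Rap, without loess, miR-300 was 0.16, miR-379 0.0082, miR-411 0.013, miR-485 0.029, miR-770-3p 0.053, miR-434-3p -0.16 and miR-668 -0.21. With spike-in centring miR-300 was 0.14, miR-485 0.0091, miR-770-3p 0.033, miR-329 -0.15, miR-381 -0.19 and miR-668 -0.23. In the value table miR-300 was 0.033, miR-381 -0.29, miR-434-3p -0.23 and miR-668 -0.26. From processed signals miR-300 was 0.31 and miR-379 0.28, and from the sample channel alone 0.14 and 0.071. In RS_Rap against RS_DMSO, miR-668 was 0.28 without loess, 0.37 with spike-in centring and 0.41 in the value table, miR-494 was 0.33, 0.43 and 0.42 in that order, and miR-411 was -0.54 from processed signals. In RR_Rap against RS_DMSO, miR-341 was 0.013 with spike-in centring. Processed signals moved the median log2 change of all probes by -0.12 in RR_Rap against RS_DMSO and by -0.11 in RS_Rap against RS_DMSO, and spike-in centring moved it by 0.10 in RR_Rap against RS_DMSO.

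Limits: each array was its own slide, so a slide block was not run. The offset shrinks the changes of members near the negative controls, and those changes were not compared with the spread of background.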

Other observations

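In the pool channel, 24 of 41 members exceeded the highest Hy5 negative control on at least 3 arrays of some group, and 8 of these did not exceed the controls by the same measure in Hy3. Over all probes the numbers were 305 and 92 of 417. The 8 were miR-300, miR-341, miR-377, miR-379, miR-540-3p, miR-654-3p, miR-666-5p and miR-770-3p, of which 5 were called in a comparison. miR-666-5p had a Hy5 signal of 102 to 133.5 on RR_Rap arrays, 82.5 to 102.25 on RS_Rap arrays and 110.5 or more on RS_DMSO arrays, beside Hy3 signals of 93.5 to 106, 89 to 103.25 and 97.5 to 114.5 in the same order of groups. Over all spots the Hy5 signal of an array had a median of 70 to 98, below its median local background of 77 to 105.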
